A study of Mus musculus with 2 samples.

Results

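The genes described here switch off MAP kinase and RAS signalling: 7 dual-specificity phosphatases that act on MAP kinases (Dusp1, Dusp2, Dusp4, Dusp5, Dusp6, Dusp10 and Dusp16) and 3 genes of the Sprouty and Spred family (Spry2, Spred1 and Spred2). They were chosen by name, and all 10 were found among the 52550 gene identifiers of the count tables through the GENCODE M21 annotation of mouse genome build mm10. Messenger RNA was compared between untreated RAW264.7 cells kept in 3D culture (1 library) and untreated RAW264.7 cells kept in 2D culture (1 library). RAW264.7 is an established mouse line with macrophage features from a tumour induced with Abelson murine leukaemia virus, so both cultures share a transformed background. The sources used here do not say how the 3D culture was set up or how long it lasted. With 1 library per culture method there is no spread between replicates: no p-value was computed, and every interval below is a 95% interval for counting error alone.

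MAP kinases are switched on when a kinase cascade phosphorylates a threonine and a tyrosine in their activation loop, and dual-specificity phosphatases remove both phosphates. Several of these phosphatases, and Sprouty genes, are themselves transcribed in answer to ERK activity, so that they form delayed negative feedback on the pathway that induced them. Spred proteins bring the RAS inhibitor neurofibromin to the membrane, which acts upstream of the cascade. In macrophages, DUSP1 is known for limiting p38 and JNK activity, and thereby cytokine output, after exposure to bacterial products.

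The libraries held 16652503 counts for 3D culture and 14371084 for 2D culture, and levels are given as counts per 1000000 (CPM) after TMM scaling, a method that equalises the bulk of the genes. All 10 macrophage markers checked, among them Csf1r, Cd68 and Lyz2, were measured in both libraries, whereas T cell and B cell markers were at or near 0, apart from the T cell kinase gene Lck at 7.09 CPM in 3D culture and 5.43 CPM in 2D culture, and the fibroblast and epithelial marker lists summed to at most 2.07 CPM in either library. Of 8 hepatocyte markers, 7 had at least 1 count in 3D culture and 3 in 2D culture, with summed levels of 24.5 CPM and 0.565 CPM; their part in the results below was not tested. In bulk RNA, fewer cells of a kind and less RNA per cell cannot be told apart. A gene is called measured where the mean level of the pair of libraries was 1 CPM or more, as for 11673 genes, and a gene at least 2-fold higher or lower in 3D culture is counted as such; 39.5% of these genes were one or the other.

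The sequences before the start sites of 4 of the genes are shown first, because they include the measured genes with the highest and the lowest ratio and a pair of ERK phosphatase genes that differed. The 250 bases before the RefSeq start were taken from RefSeq on GRCm38.p6 (mm10), where all but Dusp4 had an entry. Capitals mark the CArG box, the core letters bound by serum response factor, and the cAMP response element (CRE, TGACGTCA) or its shorter core (TGACG, which reads CGTCA on the other strand), searched on both strands; the Dusp6 and Spred1 windows held none of these. The windows are chr19:53528895-53529144 on the plus strand for Dusp5, chr17:26508473-26508722 on the minus strand for Dusp1, chr10:99262981-99263230 on the plus strand for Dusp6 and chr2:117120821-117121070 on the plus strand for Spred1, each written 5′ to 3′.
Dusp5: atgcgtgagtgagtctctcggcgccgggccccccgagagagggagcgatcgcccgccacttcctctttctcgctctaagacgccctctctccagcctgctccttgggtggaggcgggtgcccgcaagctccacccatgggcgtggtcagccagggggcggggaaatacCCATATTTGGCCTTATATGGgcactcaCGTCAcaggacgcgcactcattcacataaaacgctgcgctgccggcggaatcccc
Dusp1: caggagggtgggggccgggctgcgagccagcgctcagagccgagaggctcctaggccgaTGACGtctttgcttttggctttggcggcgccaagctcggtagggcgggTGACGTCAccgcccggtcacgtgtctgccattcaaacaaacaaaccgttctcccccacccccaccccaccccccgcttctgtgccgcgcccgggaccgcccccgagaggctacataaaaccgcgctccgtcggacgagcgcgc
Dusp6: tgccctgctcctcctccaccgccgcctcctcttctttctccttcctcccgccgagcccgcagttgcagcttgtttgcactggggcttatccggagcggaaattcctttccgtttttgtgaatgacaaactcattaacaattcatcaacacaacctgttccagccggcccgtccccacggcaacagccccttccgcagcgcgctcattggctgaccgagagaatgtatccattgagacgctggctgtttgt
Spred1: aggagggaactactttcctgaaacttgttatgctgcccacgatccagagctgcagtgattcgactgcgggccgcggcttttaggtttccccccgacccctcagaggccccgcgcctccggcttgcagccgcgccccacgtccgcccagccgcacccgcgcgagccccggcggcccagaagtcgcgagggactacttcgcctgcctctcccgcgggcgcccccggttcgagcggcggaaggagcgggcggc

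The Dusp5 window held a pair of CArG boxes side by side, CCATATTTGG at -82 to -73 and CCTTATATGG at -72 to -63 from the start, followed by 1 CRE core at -55 to -51. Among 32851 promoter windows of the same length, 482 (1.47%) held at least 1 CArG box and 6 (0.0183%) held 2 or more. The Dusp1 window held a full CRE at -143 to -136 from the start, a motif found in 508 (1.55%) of all windows, and a separate CRE core at -191 to -187. CRE cores, which every full CRE contains, occurred in 17.8% of windows and in 4 of the 9 shown in the map of motif matches, namely those of Dusp1, Dusp5, Dusp16 and Spred2. The Dusp6 and Spry2 windows held no match to CRE, CRE core, CArG box, GC box (GGGCGG) or E-box (CACGTG). GC boxes were present in the other 7 windows, against 32.7% of all windows, and E-boxes in those of Dusp1 and Dusp2, against 6.02%. No window of the 9 held the AP-1 letters TGANTCA or the TATA letters TATAAA. These are matches of letters only.

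**Figure D1:**
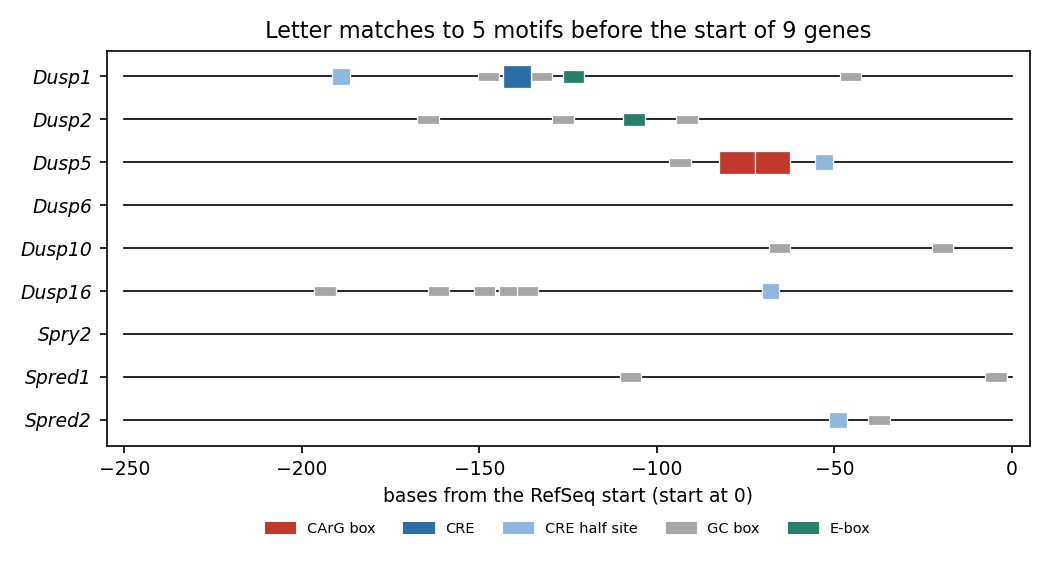
Positions of letter matches to 5 motifs in the 250 bases before the RefSeq start of 9 genes, with distance from the start in bases on the x axis and 1 line per gene (pale blue, CRE core). Each box covers the matched bases; the pair of CArG boxes lies in Dusp5 and the full CRE in Dusp1.

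The 3 phosphatase genes Dusp5, Dusp1 and Dusp2 stood at least 2-fold higher in 3D culture, and none of the measured genes of the set stood 2-fold lower. Of the 10 genes, 9 were measured and Dusp10 was not. The 3 higher genes compare with 18.7% of all 11673 measured genes, a share that would give 1.68 of 9 genes. The 0 lower genes compare with 20.8%, which would give 1.87 of 9. Counts this small lie close to the background, so nothing is read from the count itself. The median log2 ratio of the 9 measured genes was 0.33, against 0.05 for all measured genes.

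**Figure D2:**
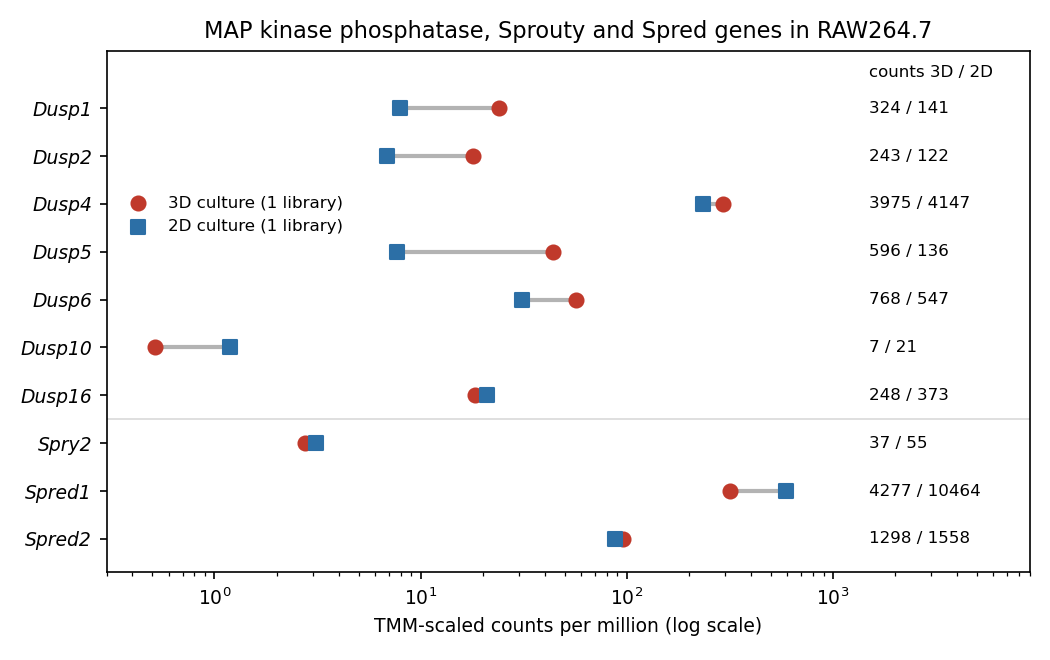
TMM-scaled CPM on a log axis for the 10 genes in 3D culture (red circles) and 2D culture (blue squares), 1 library each, with raw counts at the right. Dusp5, Dusp1 and Dusp2 lie at 44.0, 23.9 and 18.0 CPM in 3D culture and all under 8 CPM in 2D culture, whereas Spred1 is lower in 3D culture.

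The ERK-directed phosphatases differed in size from one another. Dusp5 (ENSMUSG00000034765, mm10 chromosome 19, 53529109 to 53542431, plus strand) encodes a nuclear phosphatase specific for ERK that also holds it in the nucleus. Its reads numbered 596 in 3D culture and 136 in 2D culture, or 44.0 CPM and 7.69 CPM. This 5.73-fold higher level in 3D culture (4.75 to 6.95) placed its log2 ratio of 2.52 at percentile 99.3 of all measured genes. Of its 2473 exon bases, 547 overlap an annotated antisense RNA gene; since the strand setting of the counting is unknown here, reads of that stretch cannot be told apart.

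Dusp6 (ENSMUSG00000019960, chromosome 10, 99263231 to 99267489, plus strand) encodes the cytoplasmic counterpart of Dusp5, which binds and inactivates ERK. It had 768 counts in 3D culture and 547 in 2D culture, at 56.8 CPM and 30.9 CPM. Its 1.84-fold ratio (1.64 to 2.05) lay under the 2-fold line. The contrast between the nuclear and the cytoplasmic ERK phosphatase gene is a ratio within each library, free of scaling between them. Per kb of exon, Dusp5 stood at 0.983 of the Dusp6 level in 3D culture and at 0.315 of it in 2D culture, a 3.12-fold difference (2.50 to 3.90). In 3D culture the counting intervals of both genes overlapped, and in 2D culture they did not.

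Dusp4 (ENSMUSG00000031530, chromosome 8, 34807297 to 34819894, plus strand) encodes a nuclear phosphatase that acts on ERK and JNK. With 3975 counts in 3D culture and 4147 in 2D culture, at 294 CPM and 234 CPM, it was the most abundant phosphatase of the set in both libraries. Its ratio was 1.25 (1.20 to 1.31), which placed it near the middle of all genes, at percentile 59.7. Relative to Dusp4, Dusp5 was 4.57-fold higher in 3D culture (3.77 to 5.58), Dusp1 2.40-fold (1.95 to 2.96) and Dusp2 2.08-fold (1.66 to 2.62). The abundant nuclear phosphatase gene and the scarcer ones differed beyond counting error.

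The other nuclear phosphatases of the set, Dusp1 and Dusp2, shared a similar ratio. Dusp1 (ENSMUSG00000024190, chromosome 17, 26505590 to 26562128, minus strand) encodes the stress-inducible phosphatase of p38, JNK and ERK. It had 324 counts in 3D culture and 141 in 2D culture, at 23.9 CPM and 7.97 CPM, a 3.00-fold ratio (2.46 to 3.69). Dusp2 (ENSMUSG00000027368, chromosome 2, 127336159 to 127338376, plus strand) is known chiefly from immune cells, where it is induced on activation. It had 243 counts in 3D culture and 122 in 2D culture, at 18.0 CPM and 6.90 CPM, a 2.60-fold ratio (2.09 to 3.26). The counting intervals of both genes lay above 2-fold and overlapped one another. Their log2 ratios of 1.59 and 1.38 stood at percentiles 94.1 and 90.6 of all measured genes.

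For the remaining phosphatase genes, Dusp16 and Dusp10, the counting intervals of the ratio included equality under TMM scaling. Dusp16 (ENSMUSG00000030203, chromosome 6, 134715468 to 134792625, minus strand), which encodes a phosphatase directed mainly at JNK, had 248 counts in 3D culture and 373 in 2D culture, at 18.3 CPM and 21.1 CPM. Its ratio of 0.869 had an interval of 0.737 to 1.02 that includes equality. Dusp10 (ENSMUSG00000039384, chromosome 1, 184013302 to 184075636, plus strand), which encodes a phosphatase of JNK and p38, had only 7 counts in 3D culture and 21 in 2D culture. Its ratio of 0.436 had a wide interval, 0.156 to 1.06, so a difference was not detectable at this depth under TMM scaling. Set against Dusp16, Dusp1 was 3.46-fold higher in 3D culture (2.66 to 4.50). Per kb of exon, Dusp1 stood at 3.08 times the Dusp16 level in 3D culture and at 0.890 of it in 2D culture.

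Among the inhibitors that act above the cascade, Spred1 (ENSMUSG00000027351, chromosome 2, 117121374 to 117182279, plus strand) was the measured gene with the lowest ratio. It had 4277 counts in 3D culture and 10464 in 2D culture, at 316 CPM and 592 CPM, and was 1.87-fold lower in 3D culture (1.81 to 1.94). Its partner Spred2 (ENSMUSG00000045671, chromosome 11, 19924375 to 20024026, plus strand) had 1298 and 1558 counts, at 95.9 CPM in 3D culture and 88.1 CPM in 2D culture, a ratio of 1.09 (1.01 to 1.17). Relative to Spred2, Spred1 was 2.04-fold lower in 3D culture (1.88 to 2.21), a value free of library scaling. Per kb of exon, Spred1 stood at 2.24 times the Spred2 level in 3D culture and at 4.57 times in 2D culture.

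Spry2 (ENSMUSG00000022114, chromosome 14, 105891947 to 105896819, minus strand), which encodes an ERK-induced inhibitor of receptor tyrosine kinase signalling, was near the lower limit of measurement. It had 37 counts in 3D culture and 55 in 2D culture, at 2.73 CPM and 3.11 CPM. The ratio of 0.879 had an interval of 0.563 to 1.36, so neither a difference nor its direction could be read at this depth under TMM scaling. Spry4, a relative outside the set, was better covered with 40.4 CPM in 3D culture and 43.6 CPM in 2D culture, and its ratio of 0.926 (0.828 to 1.03) also included equality. Spry2 relative to Spry4 gave a ratio of ratios of 0.95 (0.600 to 1.49).

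Of the other 7 family genes 3 were measured, and none of them passed 2-fold under TMM scaling. Spred3 stood at 42.1 CPM in 3D culture and 32.5 CPM in 2D culture, a ratio of 1.30 (1.15 to 1.46), and Dusp7, which encodes another cytoplasmic ERK phosphatase, at 23.1 CPM and 33.1 CPM, 1.44-fold lower in 3D culture (1.25 to 1.65). Dusp7 passed 2-fold lower under other settings, with log2 ratios of -1.12 for total counts, -1.29 for reference genes and -1.25 after adjustment for transcript properties. Dusp8 and Dusp9 had 7 counts in 3D culture and 5 in 2D culture each and were not measured. Spry1 had 0 counts in both libraries, which allows up to 0.222 CPM in 3D culture and 0.17 CPM in 2D culture, and Spry3 was not analysed here. Per kb of exon, Spry4 stood at 8.49 CPM in 3D culture and 9.17 CPM in 2D culture and Spred3 at 6.77 CPM and 5.22 CPM, above Spry2 in both.

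Per kb of exon, the order of levels in 3D culture was Dusp4 at 107 CPM per kb, Spred1 at 46.6, Spred2 at 20.8, Dusp6 at 18.1, Dusp5 at 17.8, Dusp2 at 8.97, Dusp1 at 7.23, Dusp16 at 2.35, Spry2 at 1.31 and Dusp10 at 0.17. Exact Poisson intervals overlapped between the neighbours Dusp6 and Dusp5 and between Dusp2 and Dusp1. In 2D culture Spred1 at 87.2 CPM per kb and Dusp4 at 85.6 overlapped at the top, above Spred2 at 19.1 and Dusp6 at 9.88. Dusp2 at 3.44, Dusp5 at 3.11, Dusp16 at 2.70 and Dusp1 at 2.41 formed a run of overlapping neighbours, above Spry2 at 1.49 and Dusp10 at 0.39.

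The summed level of the 7 phosphatase genes was 161.9 CPM per kb in 3D culture and 107.5 CPM per kb in 2D culture. Dusp4 made up 66.2% of that sum in 3D culture and 79.6% in 2D culture. Dusp5 made up 11.0% in 3D culture and 2.89% in 2D culture, and Dusp6 11.2% and 9.19%. Without Dusp4, the sum was 54.65 CPM per kb in 3D culture and 21.9 CPM per kb in 2D culture. With other scalings the log2 ratio of the sum of all 7 was -0.01 (total counts) or -0.18 (reference genes) in place of 0.59, so its direction rests on the scaling; without Dusp4 it was 0.72 or 0.55 in place of 1.32. The 3 Sprouty and Spred genes summed to 68.7 CPM per kb in 3D culture and 107.8 CPM per kb in 2D culture. Under TMM scaling Spred1 alone of these 3 was lower beyond counting error. The log2 ratio of their sum was -0.65 with TMM scaling, -1.25 with total counts and -1.42 with reference genes. The phosphatase genes summed to more than the Sprouty and Spred genes in 3D culture, and both sums were about equal in 2D culture.

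The direction for several of these genes depends on how the libraries are scaled, as the plot of ratios under 3 scalings shows. TMM scaling puts all log2 ratios 0.60 above those from total counts and 0.77 above those from 26 reference genes. Dusp5 stayed above 2-fold under each, with log2 ratios of 1.92 for scaling by total counts and 1.75 for scaling by the reference genes. Dusp1 at 0.99 and 0.82, and Dusp2 at 0.78 and 0.61, stayed above 0 but under 2-fold. Spred1 passed 2-fold lower, at -1.50 and -1.67. Dusp4 at -0.27 and -0.44, and Spred2 at -0.48 and -0.64, had the opposite sign, while Dusp6 kept its sign at 0.28 and 0.11. Dusp16 at -0.80 and -0.97, and Spry2 at -0.78 and -0.95, kept their sign and lay further below 0. Counting intervals shift with the ratios, so one that includes equality under TMM scaling need not include it under the others. All other genes shift by the same amounts, so the order of genes is the same under each scaling.

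**Figure D3:**
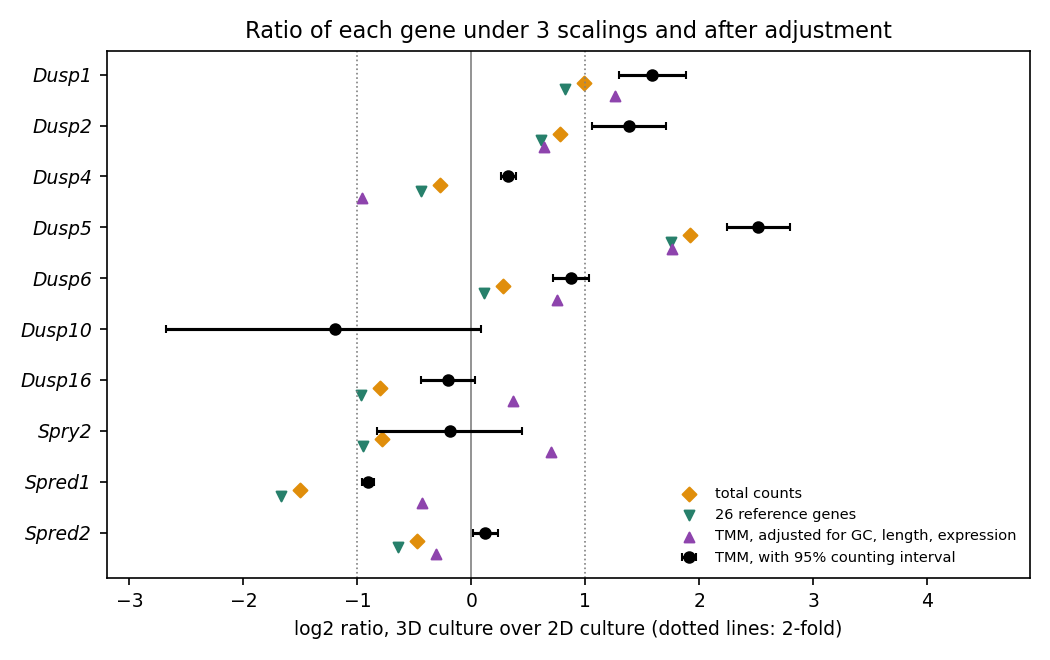
Log2 ratio of 3D culture over 2D culture for the 10 genes under TMM scaling (black, with 95% counting intervals), total counts (diamonds), 26 reference genes (triangles down) and after adjustment for transcript properties (triangles up; Dusp10, not measured, has the TMM value only). Dusp5 lies right of the 2-fold line at each setting, from 1.75 to 2.52 in those drawn.

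Ratios in this pair of libraries followed the GC content of transcripts, and the genes of the set lay at different distances from that trend. Protein-coding genes, 10538 in all, were split by GC content into 10 bins of near-equal size. Dusp5 (56.7% GC) fell in a bin with a median log2 ratio of 0.80, in which 38.4% of genes passed 2-fold higher. Its own ratio lay 1.72 above that median, and Dusp1 (54.0% GC) lay 0.96 above its bin. Dusp2 (59.2% GC) lay 0.42 above the median of the bin with the highest GC content, in which 48.7% of genes did so. Spred1 (41.2% GC) lay 0.38 above the median of the bin with the lowest GC content, in which 61.9% of genes were at least 2-fold lower; it lies at the edge of that bin, and the next one had a median of -0.83. Dusp6 (49.0% GC) lay 0.89 above its bin, and Dusp4 (56.0% GC) differed from its own by -0.48. The part of GC content in these ratios was not tested.

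The log2 ratio was also adjusted for mean expression, exon length and GC content. Dusp5 at 1.76 and Dusp1 at 1.26 stayed past 2-fold, where 11.7% of all genes were that much higher and 8.73% that much lower; no gene of the set was lower. Dusp2 stood at 0.64, Dusp6 at 0.75, Spry2 at 0.70 and Dusp16 at 0.36. Dusp4 stood at -0.96, Spred1 at -0.44 and Spred2 at -0.31, so that Dusp4 in place of Spred1 had the lowest adjusted value of the set. Dusp5 relative to Dusp4 differed by 2.71 on the adjusted log2 scale and Dusp5 relative to Dusp6 by 1.01, whereas the difference between Spred1 and Spred2 shrank to -0.13. Any real difference in regulation that tracks these properties is taken out with them.

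**Figure D4:**
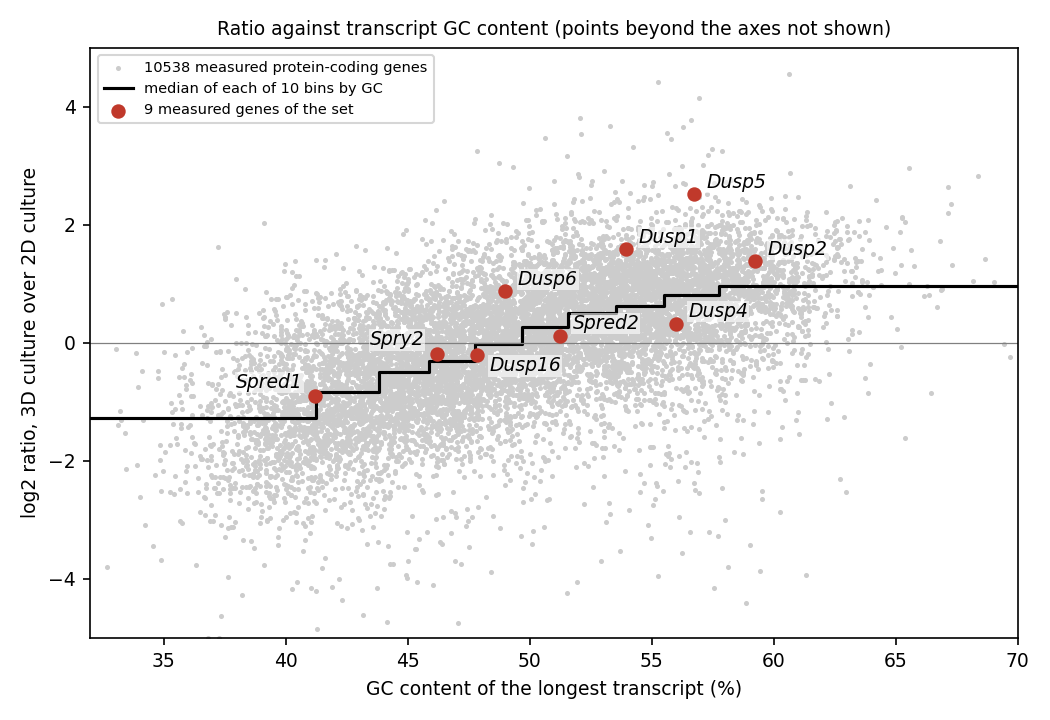
Log2 ratio of 3D culture over 2D culture against GC content of the longest transcript for 10538 measured protein-coding genes (grey), with the median of each of 10 bins (black steps) and the 9 measured genes of the set (red). Dusp5 lies 1.72 above the median of its GC bin, Spred1 within 0.38 of it.

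The list of early response genes downstream of ERK holds transcription factors and short-lived regulators, many of which the cascade induces within minutes. Some are known to be induced together with these phosphatases. The list also holds the genes of serum response factor, its partners and a D cyclin, which need not be induced that fast. Of 26 genes of this list with a measured level, 13 were at least 2-fold higher and 1 was lower. Shares of 18.7% and 20.8% of all genes would give 4.86 and 5.40. The median log2 ratio was 0.95 against 0.05 for all genes. After adjustment 7 passed 2-fold higher and 1 lower, where the all-gene shares were 11.7% and 8.73%. The adjusted median was 0.28 against 0.08 (all genes). Lists of other kinds were also high. Of 10 macrophage markers, 7 were at least 2-fold higher, with a median of 1.66, Cebpb at 6.23-fold and Cd14 at 4.24-fold among them. The macrophage marker Itgam went the other way, 1.37-fold lower in 3D culture (1.16 to 1.62). Exons of Cebpb overlap a gene on the opposite strand by 312 of 1504 bases. Those of Itgam overlap a gene on the same strand by 3450 of 5024 bases, so both counts are uncertain. Of the 26 reference genes, 10 were at least 2-fold higher, with a median of 0.77. After adjustment 2 macrophage markers and 3 reference genes passed 2-fold higher, with medians of 0.33 and 0.001. The adjusted median of the macrophage markers was thus above that of the early response list. The part of these lists in the early response values was not tested. The zinc finger factor gene Egr1 stood at 214 CPM in 3D culture and 23.7 CPM in 2D culture, 9.04-fold higher, and at 2.19 on the adjusted log2 scale. The AP-1 genes Fosl1, Jund and Fos were 4.45-fold, 4.59-fold and 3.67-fold higher, with Fos at 21.6 CPM in 3D culture and 5.88 CPM in 2D culture. Exons of Fosl1 and Jund overlap genes on the opposite strand by 1163 of 2033 and 877 of 1668 bases, so their counts are uncertain. Elk4, a partner of serum response factor, was 3.50-fold lower in 3D culture (2.88 to 4.28). The ratio of Dusp1 lay near that of Fos (0.818 of it, 0.600 to 1.11), and that of Dusp5 was 1.58-fold under that of Egr1 (1.27 to 1.96). Etv5 and Etv4, ETS factor genes often induced by ERK together with Dusp6, stood at 70.6 CPM and 12.2 CPM in 3D culture and at 57.3 CPM and 11.5 CPM in 2D culture, ratios of 1.23 (1.13 to 1.35) and 1.06 (0.860 to 1.31).

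Among the genes of the cascade that these phosphatases restrain, Mapk3, an ERK gene, stood at 311 CPM in 3D culture and 94.0 CPM in 2D culture, 3.31-fold higher (3.13 to 3.50). The genes of the kinases above it, Map2k2 and Map2k1, were 4.33-fold and 1.79-fold higher in 3D culture, and the RAS gene Hras was 4.18-fold higher. Of 17 measured genes of the ERK cascade, 6 were at least 2-fold higher and 1 lower, the kinase gene Rps6ka1 at 2.41-fold among the higher ones; all-gene shares would give 3.18 and 3.53. The median log2 ratio was 0.46, under the 0.77 of the reference genes. After adjustment 1 stayed higher, Hras at 1.34, while Mapk3 stood at 0.35 and Map2k2 at 0.85. Relative to Mapk3, Dusp5 was 1.73-fold higher in 3D culture (1.42 to 2.12) and Dusp6 1.80-fold lower (1.59 to 2.04).

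In the JNK and p38 cascades 1 of 16 measured genes was at least 2-fold higher in 3D culture and 5 were lower, where all-gene shares would give 2.99 and 3.33. The median log2 ratio was 0.31. The kinase gene Map3k8, whose product activates the ERK cascade downstream of Toll-like receptors, had 19 counts in 3D culture and 279 in 2D culture, 11.2-fold lower (7.06 to 18.9). Map3k1, Mapk8ip3 and Mapk8, which encodes JNK1, were 2.37-fold, 2.37-fold and 2.34-fold lower, and Map3k11 was 2.43-fold higher. After adjustment Map3k8 at -2.58, Map3k1 at -1.20 and Mapk8ip3 at -1.62 stayed past 2-fold, Mapk8 turned to 0.31 and Map3k11 stood at 0.25. Mapk8ip3 shares 1557 of its 14558 exon bases with Eme2 on the same strand, so its count is uncertain. The p38 alpha gene Mapk14 stood at 132 CPM in 3D culture and 107 CPM in 2D culture, a ratio of 1.24 (1.16 to 1.32).

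Genes that load or unload RAS included partners of the Spred proteins. Of 15 measured genes, 6 were at least 2-fold lower in 3D culture and 1 was higher, where all-gene shares would give 3.12 and 2.80, with a median log2 ratio of -0.25. Nf1, which encodes the neurofibromin that Spred proteins recruit, stood at 21.4 CPM in 3D culture and 68.8 CPM in 2D culture, 3.21-fold lower (2.82 to 3.66). Like Spred1 it was lower in 3D culture, and relative to Nf1, Spred1 was 1.71-fold higher (1.499 to 1.964). The GTPase activator gene Rasa2 was 2.70-fold lower and the exchange factor genes Rasgrp3 and Sos1 2.63-fold and 2.49-fold lower, while Rasa4 was 2.13-fold higher. After adjustment Rasgrp3 stayed past 2-fold at -1.25, Nf1 stood at -0.72, Sos1 at -0.02 and Rasa4 at 0.68, and Rasa2 turned to 0.12.

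Other inhibitors and phosphatases of the pathway are given with the count that the all-gene shares would give. Of 16 measured inhibitors of receptor and ERK signalling, 3 were at least 2-fold higher and 3 lower, against 2.99 and 3.33 at the all-gene shares. Errfi1, an ERK-induced inhibitor of the EGF receptor, was 3.29-fold higher in 3D culture (2.08 to 5.35), and the adaptor genes Dok3 and Dok2 were 2.46-fold and 2.19-fold higher. The G protein regulator genes Rgs1 and Rgs2 were 3.54-fold and 2.50-fold lower and the antiproliferative gene Tob1 2.91-fold lower. Among 11 measured phosphatases of MAP kinases outside the dual-specificity family, only Ppp2r1a, the scaffold subunit gene of protein phosphatase 2A, passed 2-fold, at 2.49-fold higher, where the all-gene share would give 2.06. Of 9 measured atypical dual-specificity phosphatase genes, 0 were higher and 2 were lower, against 1.68 and 1.87 at the all-gene shares. These were Styx at 3.17-fold (2.30 to 4.44) and Dusp12 at 2.48-fold (1.42 to 4.55), the latter with 17 counts in 3D culture and 55 in 2D culture. Exons of Styx overlap a gene on the opposite strand by 3878 of 16150 bases. Those of Dusp12 overlap such genes by 891 and 474 of 2743 bases, so both counts are uncertain. After adjustment Styx turned to 0.66 and Dok3 to -0.21. Ppp2r1a (0.05), Dok2 (0.14), Rgs1 (-0.23), Rgs2 (-0.57) and Dusp12 (-0.31) stood under 2-fold, while Errfi1 and Tob1 (-1.05) stayed past it. Of the 16 inhibitors, 3 were higher and 2 lower after adjustment, some of them not past 2-fold before. The all-gene shares were then 11.7% and 8.73%.

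**Figure D5:**
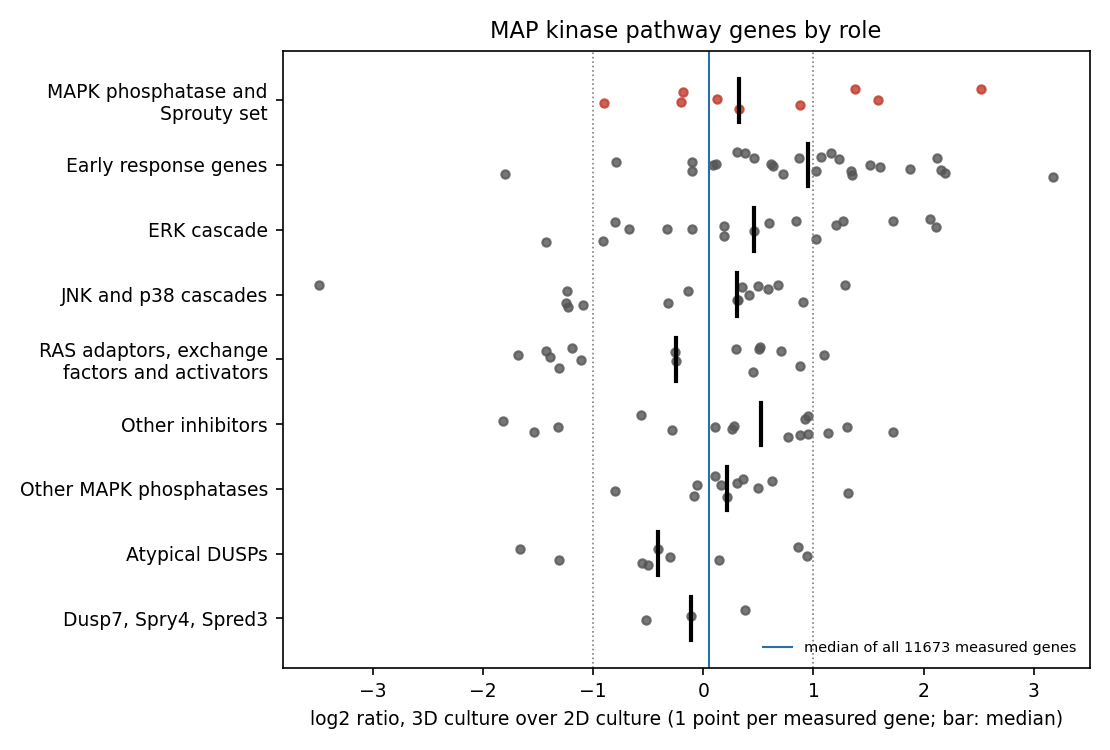
Log2 ratio of 3D culture over 2D culture for each measured gene of 9 lists (1 point per gene, jittered; black bar, median of the list; blue line, median of all 11673 measured genes; dotted lines, 2-fold). Early response genes have the highest median, 0.95, and atypical dual-specificity phosphatases the lowest, -0.41.

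AU-rich pentamers, letters often found in short-lived transcripts, were counted in the 3′ UTR. For 1 annotated transcript per gene, ATTTA occurred 4 times in the 690 bases of Dusp1 and 4 times in the 581 bases of Dusp2, or 5.80 and 6.88 per kb, against a median of 1.22 per kb over 10404 measured genes. Dusp5 held 1 copy in 1109 bases (0.902 per kb) and Dusp6 1 copy in 1189 bases (0.841 per kb). Spred1 held 12 copies in 4330 bases (2.77 per kb). The other measured genes stood at 2.34 per kb (Spry2), 1.80 (Dusp4), 1.55 (Spred2) and 1.24 (Dusp16). The longer form TATTTAT occurred 3 times each in Dusp1 and Spred1, and at least 3 copies were found in 3.28% of measured genes. Dusp5, with the highest ratio of the 9 measured genes, thus had fewer pentamers per kb than Spred1, with the lowest. Dusp1 and Dusp2, next after Dusp5 by ratio, had the most per kb. The part of these letters in the ratios was not tested.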

How the data were processed

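Messenger RNA of untreated RAW264.7 cells from 3D culture and from 2D culture was profiled with 1 library each, made with a stranded kit that selects polyadenylated RNA per the labels' protocols. The deposited values are raw counts of reads for each Ensembl gene identifier; the authors used Trimmomatic, HISAT2, HTSeq and mm10, per the submitters' processing notes. The sources used here give no versions, strand setting or annotation release. The totals were 16652503 counts (3D culture) and 14371084 counts (2D culture).

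Symbols, positions and exon lengths came from GENCODE M21, which matched 52403 of 52550 identifiers. Counts were scaled with TMM factors (0.813 for 3D culture and 1.231 for 2D culture; edgeR 4.0.16 in R 4.3.3). Ratios have exact conditional (Clopper-Pearson) 95% intervals, levels exact Poisson intervals and ratios of ratios exact conditional odds-ratio intervals (scipy 1.17.1). They cover counting error only, and PCR copies among the reads are not separate molecules. A count of 0 was taken to allow up to 3 counts. Adjustment for GC content, length and expression used cubic regression splines with 4 degrees of freedom each (patsy 1.0.2) and had values for 11666 of 11673 measured genes. The code was tested on simulated counts.

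The genes and lists were chosen with earlier results of these data known, and the pairs of genes with their values known. Named genes outside the set are the up to 4 highest and lowest of each list past 2-fold, by the interval bound nearest to 1. All close relatives and the landmarks Egr1, Fos, Mapk3, Mapk8 and Mapk14 were named as well. Map2k1, Etv4, Etv5, Lck, Cebpb, Cd14 and Itgam were named after their values were seen. Some genes that the rule names are not reported here. Alternatives were DESeq2 1.42.0 size factors, total counts, upper-quartile factors, reference genes, other filters and thresholds, a pseudocount, thinning, protein-coding genes only and the adjustment. Near-identical copies were searched with blastn 2.17.0 at 90% identity over 75 bases: Spred2 matched the processed pseudogene Gm14612, Spred1 a stretch of Vps35 and Dusp10 one of Naa16, so reads there are uncertain.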

Additional observations from a re-analysis of the deposited data

How the results depend on the processing

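Depth limits Dusp10 and Spry2, whose intervals include equality under TMM scaling but shift with other scalings. The 1 library per culture method limits everything else: scaling and composition could not be told apart from culture. Dusp5 was the highest of the set and past 2-fold in all 11 settings that gave it a ratio. Dusp1 passed in 9 and Dusp2 in 8. These settings include the main one, and a change of filter cannot alter the ratio of a gene that stays in. A change of scaling shifts all genes alike, so the place of Dusp5 as highest could not change there. The number of genes of the set at least 2-fold higher, 3, became 1 with total counts and 1 with the reference genes. Over all genes, the 2181 higher became 657 and 432 in these settings. The number lower, 0, became 1 with total counts, 1 with the reference genes, 1 without a filter (Dusp10) and 1 at 1.5-fold. Over all genes, the 2426 lower became 4292, 4916, 3939 and 3552 in the same order. As above, nothing is read from counts of the set this small. The median log2 ratio of 0.33 became -0.27 with total counts, -0.44 with the reference genes, 0.60 at a mean of at least 5 CPM, where Spry2 drops out, and 0.64 after adjustment. Of 90 values for single genes of the set, 63 stayed within the counting interval, 27 left it, and 0 of those past 2-fold reversed. The 63 include values under a changed filter, which could not move. Adjustment reversed Styx (0.66), Mapk8 (0.31), Rasa2 (0.12) and Dok3 (-0.21); beyond the adjustment itself the cause was not tested.

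Counts over all genes were 2181 higher and 2426 lower, so that 47.3% of the genes past 2-fold were higher. They became 657 and 4292 (13.3%) with total counts and 432 and 4916 (8.1%) with the reference genes. After adjustment they were 1364 and 1018 (57.3%). Without a filter 3939 were lower, and at 1.5-fold 3701 were higher. The 13 higher early response genes became 6, 5 and 7 under total counts, reference genes and adjustment, and the 6 higher ERK cascade genes 3, 2 and 1. The 6 lower RAS regulators became 6, 8 and 1, and the 5 lower JNK and p38 genes 5, 6 and 3. Lengths of the longest transcript in place of merged exons, chosen after seeing the data, moved Dusp5 from place 6 to 8 in the 2D order and left the 3D order as it was. No paired analysis was possible because each culture method has 1 library.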
